A study of Mus musculus with 23 samples.

Results

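The genes described here are the enzymes that build sterols and fatty acids in the mouse, together with the proteins that sense sterols and switch these enzymes on. The set was given as a list of 33 symbols and was read from the rows that carry them, in 3 arms of 18 sterol enzymes, 6 genes of sterol sensing and transport, and 9 fatty acid enzymes. All 33 were found among the 22412 genes listed for tumors and pancreas, and 32 among the 28096 genes listed for sorted alpha cells. Hmgcs1 was not analysed in the alpha cells, and Msmo1 was read there under its older symbol Sc4mol by its gene identifier.

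Sterol and fatty acid synthesis both start from cytosolic acetyl-CoA, which ATP citrate lyase makes from citrate. The sterol arm runs through mevalonate, the isoprenoid diphosphates and squalene to cholesterol, and the fatty acid arm runs through malonyl-CoA to palmitate, which is then elongated and desaturated. Both arms are switched on by SREBP transcription factors, which SCAP escorts out of the endoplasmic reticulum when sterols are low and which INSIG proteins hold there when sterols are high. In islet endocrine cells cholesterol is a main lipid of the secretory granule membrane.

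The study measured mRNA by bulk sequencing in 4 groups of mouse samples that differ in the glucagon receptor gene Gcgr, whose loss in the liver is known to raise circulating amino acids and to make alpha cells multiply. Alpha cells, the glucagon-secreting cells of the islet, were sorted from mice labelled heterozygous GCGR (n = 3) or homozygous knockout GCGR (n = 5). Both of those groups were given tamoxifen at 200 mg/kg for 5 days, and islets were taken 14 to 21 days later. Dissected tumors (n = 7) and non-tumor pancreatic tissue (n = 8) all came from homozygous knockout GCGR animals with no treatment named, so the tissue comparison holds the genotype constant. The labels name no Cre driver and no age, and do not say which samples came from the same animal. Values are RPKM, read density per length of gene and per size of library, so levels of different genes can be set side by side.

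Gcgr itself could not check the genotypes, since it was at 0 in all 3 heterozygous libraries and in 4 of the 5 knockout libraries, with 0.111 RPKM in the remaining library. It was at 0 in all 7 tumors and at most 0.135 RPKM in the non-tumor tissue. Glucagon mRNA made up 61.3% to 69.5% of the summed RPKM in the sorted cells and 27.8% to 46.8% in the tumors, against at most 0.073% in the non-tumor tissue, where a list of 12 acinar genes made up 51.0% to 57.7%. That acinar list took 0.713% to 18.6% in the tumors. The alpha cell libraries fell into a class with 13124 to 13882 genes detected, heterozygous 1 and 2 and knockout 1 and 2, and a class with 16123 to 16579 genes, heterozygous 3 and knockout 3 to 5. Non-tumor library 2 stood apart through immune transcripts, with 265 RPKM summed over 7 immune genes against 4.06 to 60.4 in the other non-tumor libraries. Adipocytes are a rich source of lipid synthesis enzymes. Their list of 9 markers ranged in sum from 7.29 to 47.7 RPKM in non-tumor tissue and from 10.3 to 32.7 RPKM in tumors, most of it Fabp4, which endothelial cells also express. Of the others, Cfd reached 4.46 and Car3 2.26 RPKM in non-tumor library 6, and Cfd, Car3, Cidec and Lep were at 0 in all 7 tumors, while Adipoq and Plin1 stayed below 1 RPKM in all 23 libraries. The part of adipocytes in the tissue comparison was not tested.

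A pair of promoter words was frequent upstream of the sterol enzymes in the reference sequence. Windows of 250 bases upstream of the start site, taken from RefSeq on build GRCm38.p6, were at hand for 26 of the 33 genes and were searched on both strands for 4 words. The CCAAT box, the word bound by NF-Y, a known partner of SREBP, was present in 14 of 15 sterol enzymes, 4 of 5 sensing genes and 2 of 6 fatty acid enzymes, against 37.5% of all 27025 genes with a window and 40.5% of the 8016 of them that were tested in tissue. The GC box GGGCGG, bound by SP1, was present in 14 of 15, 5 of 5 and 2 of 6 respectively, against 35.4% of all genes and 66.0% of the tested genes. The classical sterol response word TCACNCCAC was matched only in Hmgcs1, at -137 from the start site, against 1.22% of all genes, and CACGTG was matched in 5 of 26 against 6.86% of all genes and 10.2% of the tested genes. A match in any window of a gene counted, and Pmvk and Scap had 2 windows and Dhcr7, Insig2 and Srebf1 had 3. These are letter matches and say nothing of binding. The windows that follow are those of a sterol enzyme, a sterol sensor and 2 fatty acid enzymes whose levels are described later, with CCAAT matches on either strand (written ATTGG on the other strand) and the TCACNCCAC match in capitals. The window of Hmgcs1 is chr13:119690101-119690350 on the plus strand, that of Insig1 is chr5:28071162-28071411 on the plus strand, that of Fasn is chr11:120824548-120824797 on the minus strand and that of Acly is chr11:100528001-100528250 on the minus strand.
Hmgcs1: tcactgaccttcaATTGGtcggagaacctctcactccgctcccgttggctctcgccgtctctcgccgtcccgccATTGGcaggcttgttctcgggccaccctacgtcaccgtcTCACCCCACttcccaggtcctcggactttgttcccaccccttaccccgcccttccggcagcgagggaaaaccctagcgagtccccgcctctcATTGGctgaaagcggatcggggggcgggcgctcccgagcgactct
Insig1: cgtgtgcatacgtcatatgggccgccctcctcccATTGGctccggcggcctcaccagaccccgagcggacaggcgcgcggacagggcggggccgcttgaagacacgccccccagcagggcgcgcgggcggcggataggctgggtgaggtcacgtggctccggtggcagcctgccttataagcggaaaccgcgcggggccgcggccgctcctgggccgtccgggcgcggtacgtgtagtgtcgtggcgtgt
Fasn: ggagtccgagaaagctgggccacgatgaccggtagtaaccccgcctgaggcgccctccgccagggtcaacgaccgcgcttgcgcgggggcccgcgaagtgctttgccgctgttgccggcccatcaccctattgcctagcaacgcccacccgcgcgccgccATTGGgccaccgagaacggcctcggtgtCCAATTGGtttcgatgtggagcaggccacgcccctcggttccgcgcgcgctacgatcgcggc
Acly: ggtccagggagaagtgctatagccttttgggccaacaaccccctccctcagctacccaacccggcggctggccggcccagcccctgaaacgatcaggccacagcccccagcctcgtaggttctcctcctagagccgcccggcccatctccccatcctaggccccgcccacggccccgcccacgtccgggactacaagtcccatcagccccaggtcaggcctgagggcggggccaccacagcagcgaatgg
The Hmgcs1 window held 3 CCAAT boxes and the Insig1 window 1. In the Fasn window 2 of the 3 overlapped each other in opposite directions. The Acly window held none, but held 4 GC boxes.

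The first view of the set is its level in each of the 4 groups. Over the 17 sterol enzymes listed in both tables, summed RPKM was 35.6 ± 6.95 in heterozygous alpha cells (SD, n = 3), 34.8 ± 3.29 in knockout alpha cells (SD, n = 5), 24.2 ± 5.61 in non-tumor tissue (SD, n = 8) and 80.2 ± 9.20 in tumors (SD, n = 7). Over the 9 fatty acid enzymes it was 49.0 ± 12.8, 44.3 ± 12.3, 30.5 ± 5.17 and 109 ± 30.3 RPKM in the same order. As a mean over genes of log2(RPKM + 1), which weighs every gene alike, the sterol arm stood at 1.16 ± 0.15, 1.26 ± 0.17, 1.08 ± 0.15 and 2.13 ± 0.12 and the fatty acid arm at 1.70 ± 0.44, 1.79 ± 0.15, 1.73 ± 0.14 and 2.57 ± 0.30 (SD). The sterol arm thus lay 0.54, 0.53, 0.65 and 0.44 below the fatty acid arm in the 4 groups. The ranges of the sorted groups overlapped in both arms, and every tumor lay above every non-tumor library in both arms on the deposited scale. The alpha cell and tissue tables were normalised separately, so their levels stand side by side and were not compared.

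Acly, which encodes ATP citrate lyase, was the most abundant member in all 4 groups. It made up 66.0% ± 13.2 of the fatty acid sum in heterozygous alpha cells, 52.3% ± 13.1 in knockout alpha cells, 30.3% ± 8.46 in non-tumor tissue and 60.05% ± 4.47 in tumors (SD). Without Acly the fatty acid sum was 17.7 ± 11.4, 20.4 ± 5.28, 21.1 ± 3.65 and 43.1 ± 11.4 RPKM in that order. Tumors and non-tumor tissue then overlapped, with tumor 3 at 25.9 RPKM below non-tumor library 4 at 28.9 RPKM. Below Acly the order of the genes differed by group. In tumors Scap, Srebf1, Sqle and Ebp followed at 13.5 to 15.3 RPKM, with overlapping ranges. In non-tumor tissue Insig1 followed at 8.20 ± 1.86 RPKM, then Fads2 at 6.37 ± 2.32 and Srebf1 at 5.79 ± 1.36, which overlap. In knockout alpha cells Sqle followed at 9.37 ± 2.26 RPKM, and in heterozygous alpha cells Stard4 at 11.1 ± 8.99, a mean carried by 2 of 3 libraries.

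At the low end, Idi1 and Acaca did not reach 1 RPKM in any of the 23 libraries, and Fdps reached it in 1. Idi1 makes the dimethylallyl precursor of all isoprenoids, Fdps makes farnesyl diphosphate, and Acaca encodes the cytosolic acetyl-CoA carboxylase. Fdps and Acat2, the cytosolic thiolase of the first sterol step, have near-identical copies elsewhere in the mouse genome. How reads that fit several places were counted is not given in the sources used here, so the levels of both are uncertain. In addition 18 of the 33 genes overlap another annotated gene, such as Fdft1 with Ctsb and Srebf1 with Rai1 on the other strand, and strand use in counting is not given either.

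The first comparison asks whether loss of the receptor went with a change of these genes in sorted alpha cells. No tested member was called between knockout and heterozygous alpha cells, which does not show that they did not differ: 25 of 32 were tested with limma on log2(RPKM + 1), after a filter of at least 1 RPKM in at least 3 libraries, and 0 passed a Benjamini-Hochberg adjusted p of 0.05. Acinar markers differed between these groups, with the list of 12 summing to 10.1, 2874 and 384 RPKM in heterozygous libraries 1 to 3 and 6.89 to 52.9 RPKM in knockout libraries, and Cpa1, an acinar carboxypeptidase, was called lower in the knockout (-4.40, log2, limma adjusted p = 0.0195). Their part in the differences of the members was not tested. Over all 10718 genes tested, 0.159% were called higher and 0.103% lower, so few calls of any kind were made. At an unadjusted p under 0.05 there were 3 members, Sqle and Fads1 higher and Stard4 lower, against 5.65% and 4.91% of all genes. Stard4 passed the filter through the heterozygous libraries alone and had to differ, so its place in this count is a description. The 13 sterol enzymes tested had a median difference of 0.14 (log2), the 6 sensing genes -0.71 and the 6 fatty acid enzymes 0.02, beside 0.0047 for all genes. Mvd, Idi1, Fdps, Hsd17b7, Acaca, Acacb and Scd1 fell below the filter, and Acat2 passed it with 3 libraries.

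Sqle, which encodes the rate-controlling squalene epoxidase, had 2.19, 1.72 and 5.35 RPKM in heterozygous libraries 1 to 3, and 10.4, 12.8, 8.17, 7.22 and 8.24 RPKM in knockout libraries 1 to 5. Every knockout library lay above every heterozygous library, as for 3.85% of all tested genes. The difference was 1.42 ± 0.43 (log2, SE) with a limma adjusted p of 0.271. Within the libraries of few detected genes it was 2.09 and within those of many it was 0.48. The class of many holds 1 heterozygous library and the other class 2, so values within classes are given with no test, here and for the genes that follow. Fads1, the delta-5 desaturase of polyunsaturated fatty acids, had 0.130, 2.90 and 1.21 RPKM in heterozygous and 4.74, 5.01, 2.03, 3.41 and 4.24 RPKM in knockout libraries. Its groups overlapped through heterozygous library 2 and knockout library 3, and its difference was 1.15 ± 0.52 (log2, SE, limma adjusted p = 0.456), 1.48 and 0.90 within the classes.

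Stard4, a soluble carrier that moves cholesterol between membranes, showed the largest difference of the set. It had 12.3, 19.4 and 1.56 RPKM in heterozygous libraries 1 to 3, and 0.198, 0.00, 0.332, 0.594 and 0.010 RPKM in knockout libraries 1 to 5. All 3 heterozygous libraries were above 1 RPKM and all 5 knockout libraries below it, so the gene passed the filter through the heterozygous libraries alone and its separation was fixed by the filter. Its values are therefore given with no test: -2.87 ± 0.61 (log2, SE) over all libraries, and -3.91 and -0.99 within the classes. Without heterozygous library 3 the value was -3.77. That fit was the only alternative that called a member in alpha cells, and since the member was Stard4 the call is a description.

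Among the regulators, Scap, the sterol sensor that escorts SREBP, was also separated, with 7.25, 8.99 and 5.14 RPKM in heterozygous and 3.63, 0.922, 3.54, 3.82 and 4.48 RPKM in knockout libraries. Every knockout library lay below every heterozygous library, as for 3.6% of all tested genes, and the difference was -0.98 ± 0.48 (log2, SE, limma adjusted p = 0.483), -1.61 and -0.32 within the classes. Srebf2, the regulator that favours sterol genes, had 4.30, 10.8 and 5.83 RPKM against 7.64, 3.05, 3.00, 2.40 and 2.15 RPKM. Knockout library 1 lay within the heterozygous range and the other 4 lay below it, for a difference of -0.81 ± 0.49 (log2, SE, limma adjusted p = 0.570). Srebf1, the regulator that favours fatty acid genes, had 2.43, 0.758 and 2.37 RPKM against 3.73, 8.47, 1.76, 3.54 and 2.27 RPKM, which overlapped.

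Insig1, itself a target of SREBP, had 0.744, 2.55 and 2.13 RPKM in heterozygous and 6.01, 2.57, 3.505, 3.14 and 2.00 RPKM in knockout libraries. Insig2, its less regulated relative, had 1.03, 4.64 and 2.56 against 0.175, 0.274, 3.58, 2.27 and 1.52 RPKM. The groups overlapped for both, and neither passed the test, with limma adjusted p of 0.650 and 0.729. Fasn, the fatty acid synthase, overlapped between the groups: 3.52, 7.70 and 2.70 RPKM against 4.54, 6.11, 7.43, 3.10 and 2.13 RPKM, a difference of 0.02 ± 0.49 (log2, SE, limma adjusted p = 0.995). Scd1, the main liver-type stearoyl-CoA desaturase, was at 0.736 RPKM or less in all 8 libraries, while its relative Scd2 ranged from 2.37 to 11.6 RPKM. Acly had 31.3, 33.1 and 29.4 RPKM in heterozygous and 33.7, 36.3, 15.1, 21.6 and 12.5 RPKM in knockout libraries, with the 3 lowest in the class of many detected genes.

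Several genes were erratic between libraries of the same group. Mvk, mevalonate kinase, had 26.3, 0.102 and 1.14 RPKM in the heterozygous libraries. Nsdhl, a sterol demethylation enzyme on the X chromosome, was at 0 in heterozygous library 1 and knockout library 1 and at 2.17 to 3.44 RPKM in the other 6. Msmo1, the methyl oxidase that acts before it, was at 0.019, 0.949 and 1.96 RPKM in heterozygous and at 0.020, 0.021, 2.39, 2.44 and 1.57 RPKM in knockout libraries. Both low knockout values of Msmo1 came from the class with few detected genes. These spreads set the SE of the 25 fitted differences at 0.38 to 0.84 (log2).

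**Figure D1:**
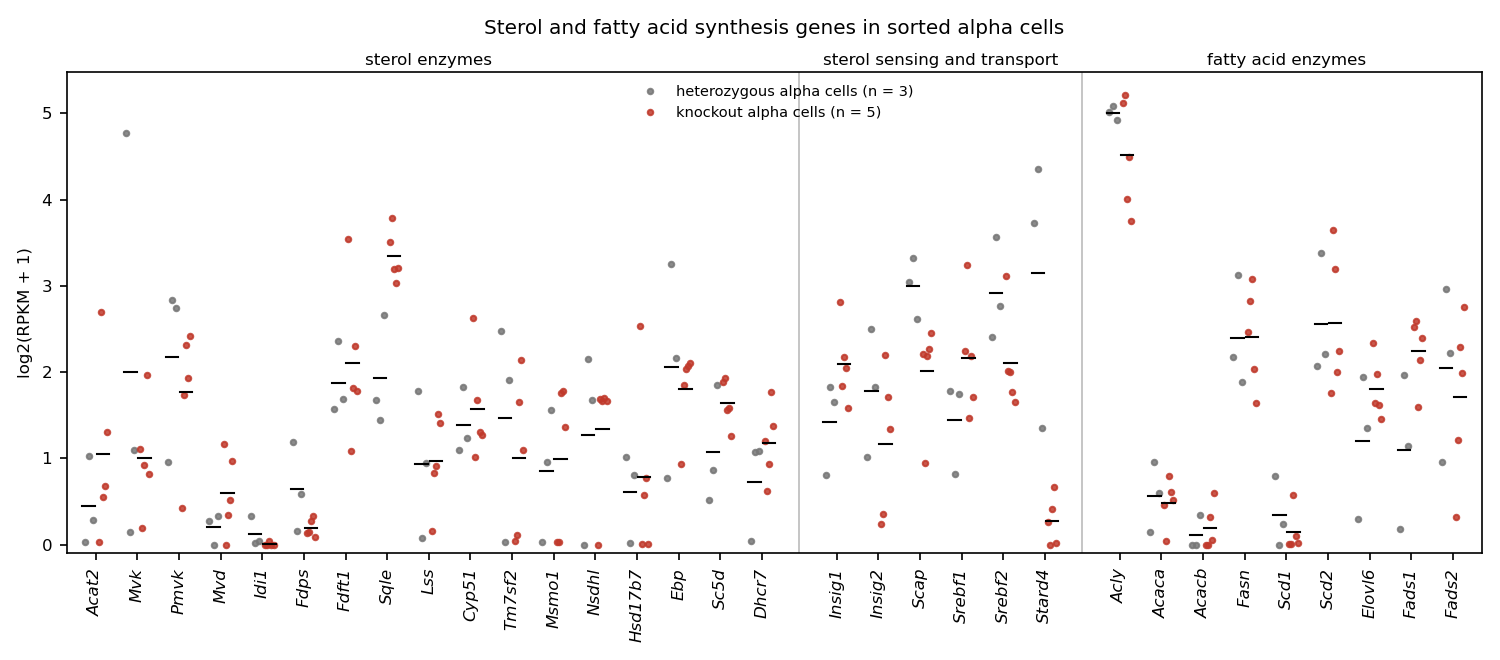
Level of each of the 32 listed genes in sorted alpha cells, as log2(RPKM + 1), one point per library, grey for heterozygous (n = 3) and red for knockout (n = 5), with the group mean as a black line. Sqle lies higher and Stard4 and Scap lie lower in every knockout library, while for the other tested genes the groups overlap.

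The second comparison sets tumors against non-tumor pancreas of the same genotype. On the deposited scale 24 of the 27 tested members were higher in tumors and Acacb was lower, but so were most genes: of 10220 genes tested, 90.7% were called higher and 3.68% lower. The median gene was 1.46 (log2) higher, in tables where acinar transcripts filled 51.0% or more of the non-tumor libraries and at most 18.6% of a tumor. Centring each library on its median gene removed a shift of 1.54, and then 5 members were higher, 16 lower and 6 not called, against 28.6% of all genes called higher and 36.7% lower. Members are therefore given on both scales. In bulk tissue, fewer cells of a type and less RNA per cell cannot be told apart, and acinar and alpha cell shares changed together between these groups. The part of either in the results was not tested.

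By arm, all 14 tested sterol enzymes were higher on the deposited scale, and relative to the median gene 3 were higher and 9 lower, with a median of 1.22 and -0.32 (log2). Of the 5 tested sensing genes 4 were higher on the deposited scale, with a median of 1.19, and relative to the median gene 0 were higher and 2 lower, with a median of -0.35. Of the 8 tested fatty acid enzymes 6 were higher and 1 lower on the deposited scale, with a median of 0.78, and relative to the median gene 2 were higher and 5 lower, with a median of -0.76. In each arm the median lay below that of all tested genes, 1.46. Tumors were entirely above non-tumor tissue for 10 of 14, 3 of 5 and 3 of 8 genes, against 76.9% of all genes. The filter, at least 1 RPKM in at least 7 libraries, left out Acat2, Idi1, Fdps, Hsd17b7, Stard4 and Acaca. Lss and Elovl6 passed it through the tumors alone and had to differ, so the counts that hold them are a description. Tm7sf2, Mvk, Nsdhl, Mvd and Pmvk lay under 1 RPKM in 7, 6, 6, 6 and 4 of the 8 non-tumor libraries. They passed only with the tumors counted, so the filter favoured a difference and their p-values carry that limit. Leaving out non-tumor library 2, in which 15 of the 27 genes had their highest non-tumor value, left the deposited-scale counts of every arm as they were.

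**Figure D2:**
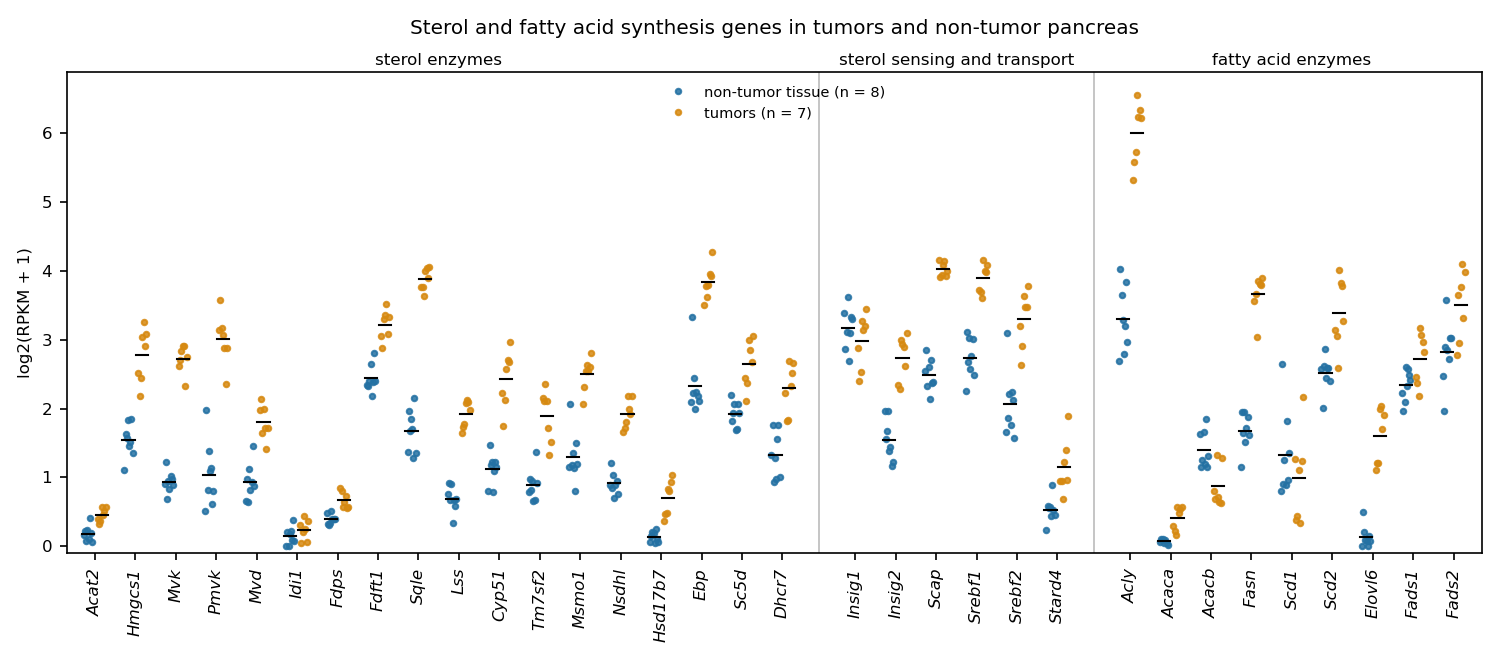
Level of each of the 33 genes in tissue, as log2(RPKM + 1), one point per library, blue for non-tumor pancreas (n = 8) and orange for tumors (n = 7), with the group mean as a black line. On this deposited scale Acly stands above the other genes in tumors, at 38.9 to 93.5 RPKM, while Insig1, Scd1 and Acacb do not share the shift that carries the rest upward.

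Sqle, Acly and Fasn were higher in tumors on every scale tried and, on both main scales, in every fit that left out a library. Sqle had 1.44, 2.23 and 3.46 RPKM in non-tumor tissue (lowest, median and highest) and 11.4, 14.0 and 15.7 RPKM in tumors. All tumors lay far above all non-tumor libraries, and the tumors varied little among themselves. The difference was 2.21 ± 0.14 (log2, SE, limma adjusted p = 4.14e-11) and 0.67 ± 0.11 relative to the median gene (limma adjusted p = 4.88e-05). Its 4 rescaled values, from 2 ways of centring, quantile normalisation and equal sums outside the most abundant genes, ranged from 0.61 to 0.81.

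Acly had 5.44, 8.47 and 15.3 RPKM in non-tumor tissue and 38.9, 73.8 and 93.5 RPKM in tumors. The lowest tumor lay well above the highest non-tumor library, non-tumor library 2. The difference was 2.69 ± 0.22 (log2, SE, limma adjusted p = 1.70e-09) and 1.15 ± 0.17 relative to the median gene (limma adjusted p = 1.41e-05), the largest rise among the 27 tested members on both scales. At least 4411 to 11320 reads per tumor stood behind these values, against 388 to 775 in non-tumor tissue. Fasn had 1.22, 2.21 and 2.89 RPKM in non-tumor tissue and 7.25, 12.8 and 13.9 RPKM in tumors, with tumor 3 lowest and apart from the other tumors. Its difference was 1.98 ± 0.15 (log2, SE, limma adjusted p = 3.56e-10) and 0.44 ± 0.10 relative to the median gene (limma adjusted p = 0.00106).

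Mvk and Pmvk, the paired kinases that phosphorylate mevalonate, were also higher on all 4 rescalings, less securely. Mvk had 0.605, 0.906 and 1.33 RPKM in non-tumor tissue and 4.01, 5.74 and 6.49 RPKM in tumors, and Pmvk had 0.433, 0.951 and 2.94 against 4.13, 7.39 and 10.96 RPKM. Neither overlapped between the groups. Mvk lay under 1 RPKM in 6 of the 8 non-tumor libraries and Pmvk in 4, so both passed the filter only with the tumors counted. Relative to the median gene the differences were 0.24 ± 0.10 and 0.43 ± 0.18 (log2, SE, limma adjusted p = 0.0350 and 0.0473). The call of Mvk was lost in 7 of the 15 fits that left out a library and that of Pmvk in 9, with values no lower than 0.21 and 0.31.

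The remaining sterol enzymes rose on the deposited scale by 0.72 to 1.51 (log2) and, relative to the median gene, lay below 0. Hmgcs1, the synthase that makes HMG-CoA, had 1.16, 1.93 and 2.61 RPKM in non-tumor tissue and 3.52, 6.52 and 8.53 RPKM in tumors, without overlap. It was higher by 1.23 ± 0.16 (log2, SE, limma adjusted p = 8.86e-07), and -0.31 ± 0.12 relative to the median gene (limma adjusted p = 0.0350), a call lost in 7 of 15 fits that left out a library. Cyp51, the lanosterol demethylase, had 0.727, 1.25 and 1.78 RPKM against 2.35, 4.94 and 6.81 RPKM, and Ebp, a sterol isomerase, had 2.98, 3.61 and 9.07 against 10.4, 13.0 and 18.3 RPKM. Both separated the groups on the deposited scale and neither was called relative to the median gene, with limma adjusted p of 0.103 and 0.820. Without tumor 7, Cyp51 was called lower on that scale (-0.30, limma adjusted p = 0.0230). The highest non-tumor value of Ebp came from library 2, and the other 7 lay at 4.43 RPKM or less.

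Lss, the cyclase that closes the sterol rings, had 0.270, 0.604 and 0.892 RPKM in non-tumor tissue and 2.12, 2.96 and 3.34 RPKM in tumors. Nsdhl had 0.631, 0.859 and 1.32 against 2.15, 2.79 and 3.53 RPKM. Nsdhl separated the groups, was higher on the deposited scale by 1.008 (log2, limma adjusted p = 5.44e-08) and was lower relative to the median gene, at -0.53 (limma adjusted p = 1.36e-05). With 6 of the 8 non-tumor libraries under 1 RPKM, Nsdhl passed the filter only with the tumors counted. Lss passed the filter through the tumors alone, so its separation was fixed by the filter and its differences of 1.23 on the deposited scale and -0.31 relative to the median gene (log2) are given with no test. At the other end, Fdft1, the squalene synthase that acts just before Sqle, and Sc5d, a late desaturase, were called higher on the deposited scale by 0.78 and 0.72 and lower on all 4 rescalings. Fdft1 had 3.55, 4.25 and 6.04 RPKM in non-tumor tissue and 6.399, 8.90 and 10.5 RPKM in tumors. The level of Sqle relative to its neighbour thus went from a mean of 2.25 beside 4.47 RPKM in non-tumor tissue to 13.8 beside 8.42 RPKM in tumors. Dhcr7, Mvd, Msmo1 and Tm7sf2 were higher on the deposited scale by 0.86 to 1.20 and lower relative to the median gene by -0.33 to -0.68, with Msmo1 and Tm7sf2 not called on the other 3 rescalings and Msmo1 not called without tumor 1 (-0.27, limma adjusted p = 0.0538).

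**Figure D3:**
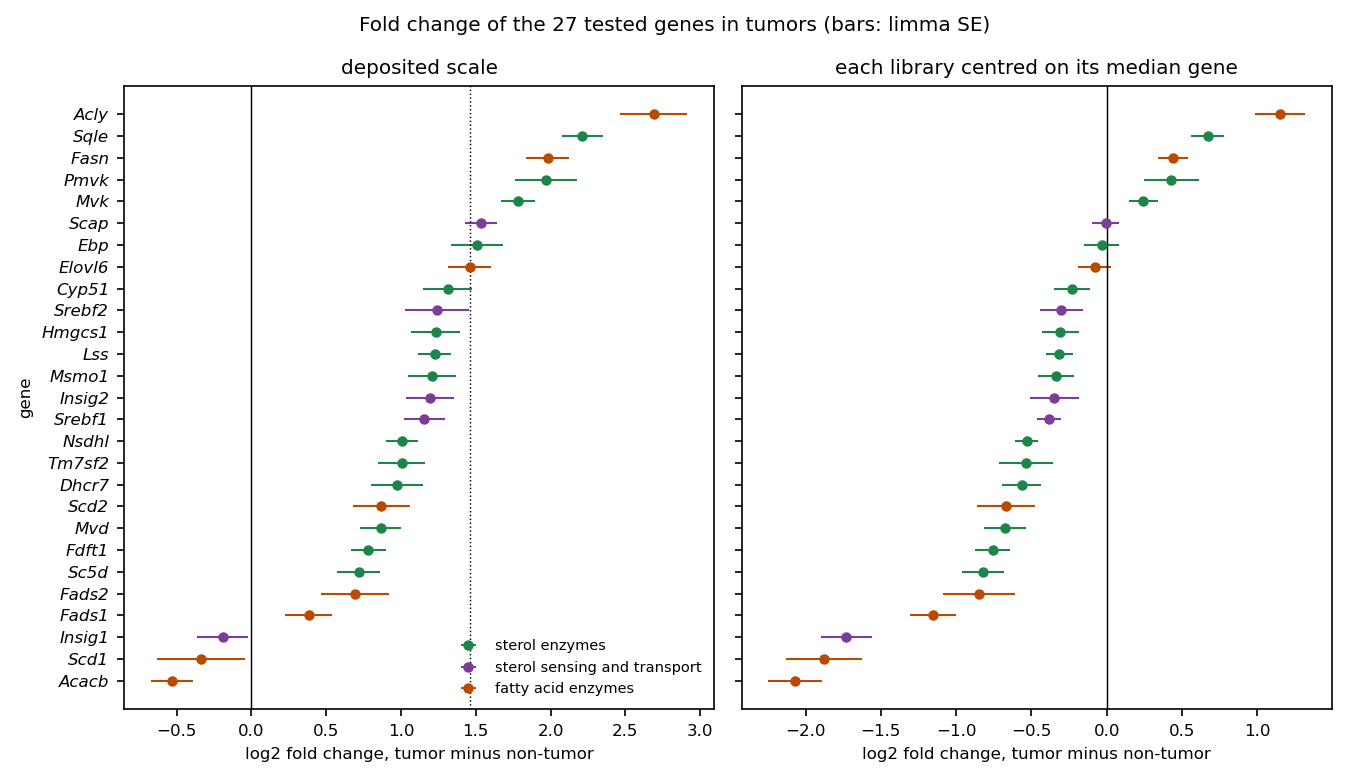
Fold change of the 27 tested genes between tumors (n = 7) and non-tumor tissue (n = 8), as log2 with limma SE, on the deposited scale (left, dotted line at the median gene, 1.46) and after centring each library on its median gene (right). Acly, Sqle, Fasn, Pmvk and Mvk lie above 0 on both scales, Acacb, Scd1 and Insig1 lie below 0 on both, and the other genes change sign between the panels.

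Of the 5 tested sensing genes, Insig1 alone was not called higher on the deposited scale. Scap had 3.42, 4.55 and 6.19 RPKM in non-tumor tissue and 14.1, 15.05 and 17.0 RPKM in tumors, the least variable member among tumors with a coefficient of variation of 7.7%. It was higher by 1.53 ± 0.11 (log2, SE, limma adjusted p = 2.33e-10), beside the shift of 1.54 that centring removed. Relative to the median gene it was not called, at -0.01 ± 0.09 (limma adjusted p = 0.960), but was called lower when centred with a pseudocount of 0.1 (-0.28, limma adjusted p = 0.0434). Srebf1 had 3.77, 5.59 and 7.64 against 11.2, 14.8 and 16.8 RPKM, higher by 1.16 ± 0.14 (limma adjusted p = 2.04e-07) and lower on all 4 rescalings, by -0.38 relative to the median gene (limma adjusted p = 0.000497). Srebf2 had 1.97, 3.00 and 7.53 against 5.19, 10.1 and 12.8 RPKM, and its only overlap came from non-tumor library 2. It was higher by 1.24 ± 0.21 (limma adjusted p = 2.37e-05) and was not called relative to the median gene (-0.30, limma adjusted p = 0.0702), but called lower without non-tumor library 8 or tumor 7 (both -0.36, limma adjusted p = 0.0364 and 0.0302).

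Insig1 was the exception among the sterol genes. It had 5.46, 8.24 and 11.3 RPKM in non-tumor tissue and 4.27, 7.87 and 9.92 RPKM in tumors, with wide overlap. Its difference was -0.19 ± 0.17 on the deposited scale (log2, SE, limma adjusted p = 0.284) and -1.73 ± 0.17 relative to the median gene (limma adjusted p = 1.47e-07), and it was called lower on all 4 rescalings. Insig2 had 1.25, 1.82 and 2.91 against 3.89, 6.46 and 7.59 RPKM without overlap, higher by 1.19 ± 0.16 (limma adjusted p = 1.00e-06) and not called relative to the median gene (-0.35, limma adjusted p = 0.0733), but called lower without non-tumor library 2 or 7 or tumor 3 (-0.42 to -0.40, limma adjusted p = 0.0313 to 0.0421). Stard4 was not tested, with 0.179 to 0.849 RPKM in non-tumor tissue and 0.612 to 2.70 RPKM in tumors, highest in tumor 7.

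In the fatty acid arm the desaturases and the mitochondrial carboxylase were lower on all 4 rescalings, unlike Acly and Fasn. Acacb, the carboxylase isoform tied to the control of fatty acid oxidation, had 1.22, 1.43 and 2.59 RPKM in non-tumor tissue and 0.551, 0.635 and 1.503 RPKM in tumors. Tumors 3 and 7 lay within the non-tumor range and the other 5 below it. It was the only one of the 27 tested members called lower on the deposited scale, by -0.53 ± 0.14 (log2, SE, limma adjusted p = 0.00182), and it was lower on all 4 rescalings. Its relative Acaca was below the filter, with 0.014 to 0.078 RPKM from 2 to 10 reads in non-tumor libraries and 0.118 to 0.491 RPKM from 26 to 123 reads in tumors. These did not overlap.

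Scd1 had 0.742, 1.17 and 5.28 RPKM in non-tumor tissue and 0.270, 1.16 and 3.49 RPKM in tumors, with the highest values in non-tumor library 2 and tumor 7. The groups overlapped, but tumors 2, 3 and 5, at 0.31, 0.36 and 0.27 RPKM, lay below every non-tumor library. Scd1 was not called on the deposited scale (-0.34 ± 0.29, log2, SE, limma adjusted p = 0.271) and was lower on all 4 rescalings. Scd2, its relative in the brain and in developing tissue, had 3.04, 4.98 and 6.32 against 5.02, 8.66 and 15.2 RPKM, higher by 0.87 ± 0.19 (limma adjusted p = 0.000270) and lower on all 4 rescalings. Fads1 had 2.92, 4.18 and 5.10 against 3.55, 6.04 and 8.03 RPKM, a difference of 0.38 ± 0.16 (limma adjusted p = 0.0268). The difference was 0.31 to 0.35 without non-tumor library 3 or tumor 4, 5 or 6, and was then not called (limma adjusted p = 0.0518 to 0.0693). Fads2, the delta-6 desaturase, had 2.90, 6.35 and 10.9 against 5.86, 11.5 and 16.2 RPKM, with overlap (0.69 ± 0.23, limma adjusted p = 0.00789). Relative to the median gene Fads1 and Fads2 were lower by -1.16 and -0.85, and on all 4 rescalings.

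Elovl6, which elongates palmitate to stearate, had the largest ratio of the set. It was at 0.00, 0.064 and 0.407 RPKM in non-tumor tissue, 0 to 5 reads per library, and at 1.17, 2.27 and 3.10 RPKM in tumors, 32 to 88 reads. The ratio of the mean RPKM was 20.0 and, without non-tumor library 2, which held the 5 reads, 33.6. Since the gene passed the filter through the tumors alone, its values are given with no test: 1.46 ± 0.15 (log2, SE) on the deposited scale, -0.08 relative to the median gene, and 1.54 with a pseudocount of 0.1 on the centred scale. The same ratio of means had a median of 4.07 over all tested genes. Besides Elovl6, the members above it were Acly at 6.96, Acaca at 6.74, Hsd17b7 at 6.71, Pmvk at 6.24, Sqle at 6.15, Mvk at 6.10, Fasn at 5.26 and Lss at 4.47. Hsd17b7, like Acaca, was below the filter, at 0.038 to 0.185 RPKM in non-tumor tissue and 0.295 to 1.04 RPKM in tumors. Insig1 stood at 0.872, Scd1 at 0.672 and Acacb at 0.513.

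Ratios between related genes within a library do not depend on how libraries are scaled to each other, apart from the pseudocount of 1. There were 10 ratio tests, 5 pairs in 2 comparisons, each a two-sided exact permutation test with Benjamini-Hochberg adjustment over the 10. The mean log2 ratio of Insig1 to Insig2 was 1.63 ± 0.33 in non-tumor tissue (SD, n = 8, range 1.30 to 2.16) and 0.24 ± 0.35 in tumors (SD, n = 7, range -0.46 to 0.59). No tumor reached the lowest non-tumor library, and the exact permutation test gave 0.00031, the smallest p that 8 against 7 allows, and 0.00311 adjusted. The ratio of Acaca to Acacb moved the other way, from -1.33 ± 0.26 to -0.46 ± 0.38 (SD, adjusted exact permutation p = 0.00622), with tumor 3 inside the non-tumor range. Acaca was at 0.014 to 0.078 RPKM in non-tumor tissue, so with the pseudocount of 1 the ratio there was set mainly by Acacb. This ratio is therefore not free of the library scale, and its size understates the gap in RPKM between the genes. Scd1 to Scd2 went from -1.18 ± 0.81 to -2.39 ± 0.77 (SD, adjusted exact permutation p = 0.0238), with overlap, and this call was lost without tumor 2, 4, 5 or 6 (adjusted p = 0.0511). Scd1 lay under 1 RPKM in 4 of 8 non-tumor libraries and 3 of 7 tumors. With the pseudocount of 1 its ratio to Scd2 is therefore also not free of the library scale. Srebf1 to Srebf2 was 0.67 ± 0.30 against 0.59 ± 0.24 (SD, adjusted exact permutation p = 0.635), and Fads1 to Fads2 was -0.48 ± 0.33 against -0.79 ± 0.39 (SD, adjusted exact permutation p = 0.173).

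In alpha cells the Insig1 to Insig2 ratio was -0.36 ± 0.27 in heterozygous and 0.93 ± 1.09 in knockout libraries (SD, n = 3 and 5). Every knockout library lay above every heterozygous library, at the smallest exact permutation p that 3 against 5 allows, 0.0357, and 0.0714 after adjustment. Knockout libraries 1 and 2, with few detected genes, stood highest, at 2.58 and 1.48. Knockout libraries 3 to 5 lay at -0.02, 0.34 and 0.25, beside -0.18 in heterozygous library 3. Fads1 to Fads2 was likewise separated, -0.95 ± 0.16 against 0.54 ± 1.22 (SD, adjusted exact permutation p = 0.0714). There knockout libraries 1 and 2 had 2.21 and 1.37. Knockout libraries 3 to 5 had -0.69, 0.15 and -0.36, beside -1.09 in heterozygous library 3. The ratio of Srebf1 to Srebf2 was -1.47 ± 1.13 against 0.06 ± 0.82 (SD, adjusted exact permutation p = 0.119). Scd1 to Scd2 and Acaca to Acacb had adjusted exact permutation p of 0.75 and 0.635.

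**Figure D4:**
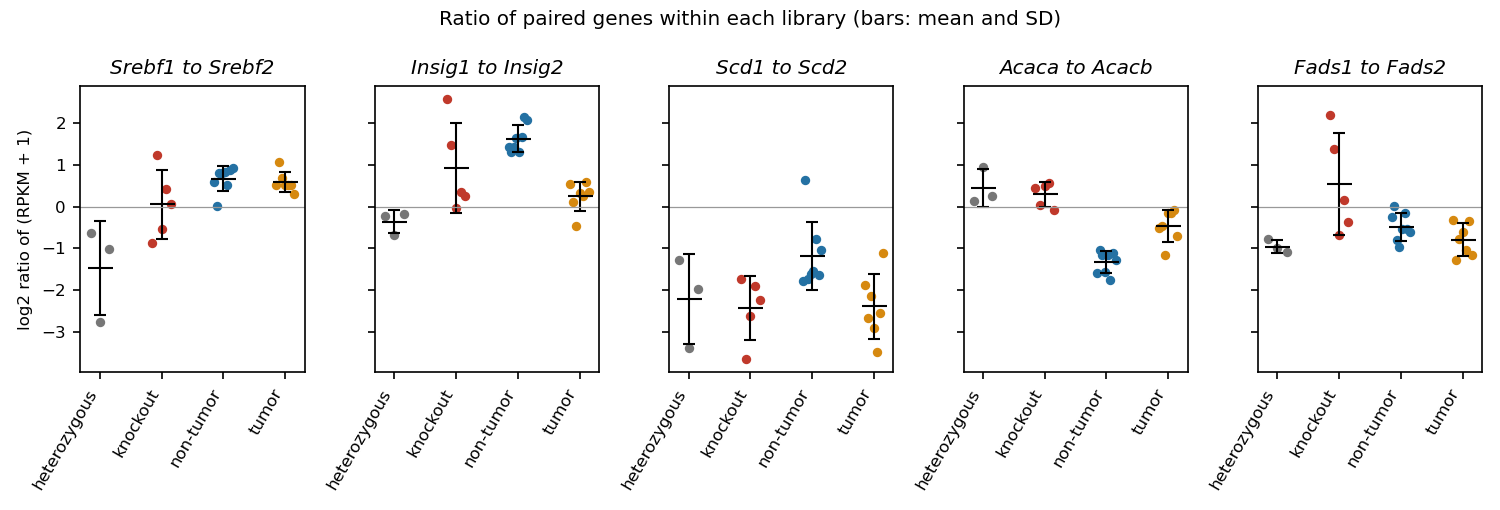
Log2 ratio of (RPKM + 1) between paired genes within each library, one point per library in heterozygous (n = 3) and knockout (n = 5) alpha cells and in non-tumor tissue (n = 8) and tumors (n = 7), with mean and SD in black. The Insig1 to Insig2 ratio of every tumor, at most 0.59, lies below that of every non-tumor library, at least 1.30.

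Tumors differed among themselves, more in the fatty acid arm than elsewhere by the median coefficient of variation over genes, which was 37.4% for fatty acid enzymes, 24.5% for sterol enzymes and 27.2% for sensing genes. Of the 27 tested genes, 10 had their highest tumor value in tumor 7, 6 in tumor 4 and 6 in tumor 5, while 9 had their lowest in tumor 2 and 7 in tumor 1. The fatty acid sum was 71.4, 83.9, 77.7, 148, 129, 126 and 125 RPKM in tumors 1 to 7, and the sterol sum was 70.7, 73.1, 73.2, 88.8, 86.7, 75.4 and 93.5 RPKM. Tumors 1 to 3 were thus the lowest in both sums. Pmvk and Tm7sf2 ran against this, with 7.84, 10.96, 7.98, 7.39, 6.34, 4.13 and 6.36 RPKM for Pmvk and 3.46, 3.31, 4.14, 3.33, 2.29, 1.497 and 1.85 RPKM for Tm7sf2. Of the marker lists, those of fibroblast and mural genes and of ductal genes split the tumors in the same way. The other lists overlapped between tumors 1 to 3 and tumors 4 to 7. The endothelial list, for example, summed to 104, 198 and 67.6 against 203, 166, 119 and 156 RPKM. The list of 8 fibroblast and mural genes, each detected in tumors, summed to 182, 90.5 and 48.6 RPKM in tumors 1 to 3 and to 456, 259, 280.5 and 556 RPKM in tumors 4 to 7. The list of 7 ductal genes, each detected in tumors, summed to 157, 199 and 122 RPKM in tumors 1 to 3 and to 1086, 229, 464 and 597 RPKM in tumors 4 to 7. Acinar transcripts took 7.66%, 1.009%, 5.32%, 5.19%, 0.713%, 7.92% and 18.6% of the RPKM sum in tumors 1 to 7. The part of these cells in the spread between tumors was not tested.

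**Figure D5:**
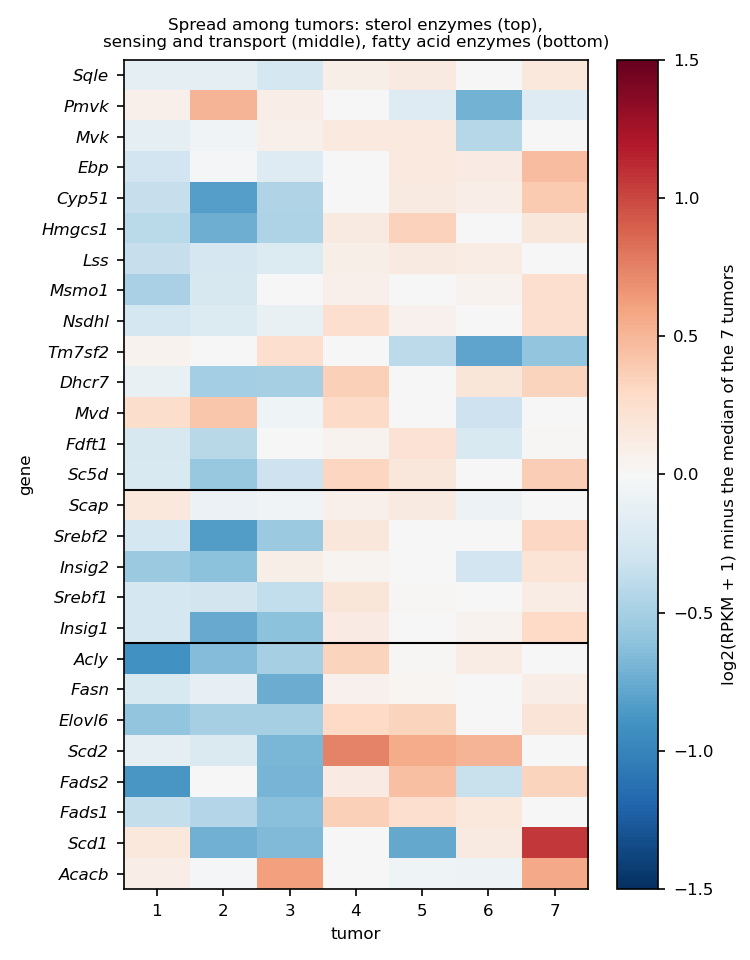
Level of the 27 tested genes in each of the 7 tumors, as log2(RPKM + 1) minus the median of the 7 tumors for that gene, red above and blue below. Most rows are bluer in tumors 1 to 3, where the fatty acid sum was 71.4 to 83.9 RPKM, and redder in tumors 4 to 7, where it was 125 to 148 RPKM, while Pmvk and Tm7sf2 run the other way.

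Around the members, 6 further lists of lipid genes were read in the same fits. In alpha cells 0 genes of any list passed with limma. At an unadjusted p under 0.05 there were 2 genes higher and 1 lower in the list of fatty acid supply, 1 lower in the list of SREBP proteases and INSIG partners, and 0 in the other 4. The lowest adjusted p in those lists belonged to Acsl5 and Acsl1, which activate fatty acids to their CoA esters, at 2.66 ± 2.39 against 7.92 ± 2.00 RPKM and 0.288 ± 0.461 against 2.42 ± 1.62 RPKM (SD, limma adjusted p = 0.331 and 0.339). Genes of lowest adjusted p in the other lists included Mbtps2 and Ubxn8 of the SREBP list, Hadh of oxidation, Lpin1 and Agpat2 of glycerolipid synthesis, Fnta and Pdss1 of the isoprenoid branch, and Scarb1 and Abca1 of trafficking, with limma adjusted p from 0.4661 to 0.749. In tissue, of 9 tested genes that cut, carry or retain SREBP, all were higher on the deposited scale, and relative to the median gene 4 were higher and 0 lower. For this list and those that follow, 90.7% of all tested genes were higher and 3.68% lower on the deposited scale. Relative to the median gene these shares were 28.6% and 36.7%. Mbtps1, the site-1 protease that cleaves SREBP, went from 4.27 ± 0.989 to 22.0 ± 3.51 RPKM (SD), 2.13 on the deposited scale and 0.59 relative to the median gene (limma adjusted p = 4.05e-11 and 2.96e-06). Sar1b, a GTPase of the vesicles that leave the endoplasmic reticulum, went from 4.66 ± 1.19 to 26.2 ± 2.13 RPKM.

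Of 16 tested genes of fatty acid supply, elongation and activation, 15 were higher on the deposited scale, and relative to the median gene 4 were higher and 5 lower. Mid1ip1, an activator of acetyl-CoA carboxylase, went from 4.82 ± 0.927 to 39.2 ± 3.66 RPKM (SD), 2.80 and 1.26 on the respective scales (log2, limma adjusted p = 3.07e-13 and 1.17e-08). Hsd17b12, the reductase of the elongation cycle, went from 1.97 ± 0.575 to 18.9 ± 2.47 RPKM. Of 13 genes of sterol trafficking, 12 were higher on the deposited scale, and relative to the median gene 3 were higher and 6 lower. Npc2, which hands lysosomal cholesterol on for export, went from 13.3 ± 6.94 to 157 ± 19.3 RPKM (SD), 3.58 and 2.04 (log2, limma adjusted p = 3.21e-11 and 2.15e-08). Osbpl2 in the same list was higher by 1.34 on the deposited scale and was not called relative to the median gene.

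Of 14 tested genes of fatty acid oxidation, 12 were higher and 1 lower on the deposited scale, and relative to the median gene 2 were higher and 8 lower, against 28.6% and 36.7% of all genes. Cpt2, a carnitine palmitoyltransferase of mitochondria, was higher on both scales, from 3.26 ± 0.427 to 18.1 ± 2.81 RPKM. Of 15 tested genes of glycerolipid synthesis and lipid droplets, 13 were higher on the deposited scale, and relative to the median gene 2, Lpin2 and Cds2, were higher and 11 lower. Of 10 tested genes of the isoprenoid branch, all were higher on the deposited scale, and relative to the median gene 1, the farnesyltransferase subunit Fntb, was higher and 3 were lower. Coq2, which prenylates the ubiquinone ring, was higher by 1.73 on the deposited scale and was not called relative to the median gene. Relative medians were 0.14 for the SREBP list, 0.10 for the isoprenoid branch, -0.04 for supply and elongation, -0.24 for sterol trafficking, -0.54 for oxidation and -0.55 for glycerolipid synthesis (log2).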

How the data were processed

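The authors deposited 2 tables of RPKM per gene, for 8 alpha cell and 15 tissue libraries; the unit was read from the values. Per the submitters' processing notes, GSNAP, CASAVA 1.8 and build GRCm38 were used, with roles not stated; no counting tool or annotation is named there. Per the labels' protocols, libraries came from a TruSeq RNA kit. All value columns matched a sample (0 unmatched).

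Levels were compared on log2(RPKM + 1) with limma 3.58.1 (trend, two-sided, Benjamini-Hochberg over all genes passing the filter, in R 4.3.3), since RPKM is not a count. The code was checked on simulated data. Ratios used exact permutation tests (scipy 1.17.1). Alternatives covered 3 library scales, 2 further pseudocounts, filters, array weights, a replicate block, the detected-gene class and leaving out each library. Total depth is unknown; reads per member in tissue were recovered from value steps (whole within 0.1 read). The labels do not say whether replicates are separate animals, so the p-values may rest on technical spread alone.

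The members, lists and tests were chosen with earlier results of these data known. Named with values were members passing a test (the 8 of lowest adjusted p per arm), the regulators Srebf1, Srebf2, Insig1 and Insig2, Fasn and Scd1, and the 2 genes of lowest adjusted p from each other list, of which 1 is not reported here; Stard4, Scap, Sqle, Fads1 and Acly in alpha cells, and other members, were added after their values were seen. Positions are from RefSeq windows on GRCm38.p6 and GENCODE overlaps on GRCm38.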

Additional observations from a re-analysis of the deposited data

Results flagged for a closer look

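Of 80 combinations of a gene and a group of 4 to 10 libraries, 8 held a library whose gap to its nearest neighbour exceeded Dixon's critical value, and chance alone gives this in about 5% of them. In knockout alpha cells, library 1 lay far below the others for Nsdhl (0.00 against 2.17 to 2.25 RPKM) and Ebp (0.910 against 2.601 to 3.30 RPKM) and far above them for Srebf2 (7.64 against 2.15 to 3.05 RPKM). Knockout library 2 lay far below the others for Scap (0.922 against 3.54 to 4.48 RPKM). Both are libraries with few detected genes.

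In non-tumor tissue, library 2, which stood apart through immune transcripts, lay far above the others for Ebp (9.07 against 2.98 to 4.43 RPKM) and Srebf2 (7.53 against 1.97 to 3.73 RPKM). Library 7 lay far above the others for Tm7sf2 (1.58 against 0.571 to 0.969 RPKM). Among tumors, library 3 lay far below the others for Fasn (7.25 against 10.8 to 13.9 RPKM).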

How the results depend on the processing

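The limits lie in the scale and in the alpha cell libraries. RPKM carries no total depth, so read numbers in tissue were recovered from value steps and are lower bounds, and the lowest members rest on few reads. In alpha cells the spread between libraries allows only large differences to be called. Genes lost in the filter were not tested, and sign changes of values called under neither setting were not counted.

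In alpha cells 0 members were called under each alternative except Stard4 without heterozygous library 3 (-3.77, log2). Stard4 passed the filter through the heterozygous libraries alone, so that call is a description. Calls over all genes moved to 28 higher and 18 lower under quantile normalisation, 29 higher under equal sums outside the 200 most abundant genes, 1 lower under a pseudocount of 0.1 or 0.01, 0 and 0 with no filter and 51 higher and 39 lower with array weights. Leaving out a library gave 7 to 29 higher and 0 to 33 lower, with 33 lower without heterozygous library 1, 7 higher and 0 lower without heterozygous library 2, 29 and 28 without heterozygous library 3, and 4 to 7 lower without knockout library 2, 3, 4 or 5; sensing genes called lower ranged from 0 to 1. Correlations of deviations between same-numbered libraries were 0.0013 to 0.0872 in alpha cells and -0.2225 to 0.1494 in tissue. Such values cannot show whether same-numbered samples came from the same animal. The replicate block gave 2 higher and 0 lower over all genes in alpha cells and changed no member's call in either comparison.

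In tissue, median centring gave 2927 genes higher and 3746 lower, with 3 and 9 sterol enzymes, 0 and 2 sensing genes, and 2 and 5 fatty acid enzymes. Quantile normalisation gave 3335 and 3042, with 3 and 6, 0 and 3, and 3 and 5 in the same arms. Equal sums gave 4852 and 2094, with 4 and 2, 0 and 2, and 3 and 5. Centring with a pseudocount of 0.1, chosen after seeing the data, gave 3197 and 3120, with 3 and 6, 0 and 4, and 3 and 5. Leaving out each library on the centred scale was also chosen after seeing the data. A mean of at least 5 RPKM gave 3909 and 178, with 3 sterol enzymes higher and 0 fatty acid enzymes lower because fewer genes were tested, and no filter gave 614 lower. Median centring reversed 19 members to log2 differences of -0.0055 for Scap, -0.0322 for Ebp, -0.08 for Elovl6, -0.23 for Cyp51, -0.30 for Srebf2, -0.31 for Hmgcs1, -0.31 for Lss, -0.33 for Msmo1, -0.35 for Insig2, -0.38 for Srebf1, -0.53 for Nsdhl, -0.54 for Tm7sf2, -0.56 for Dhcr7, -0.67 for Scd2, -0.68 for Mvd, -0.76 for Fdft1, -0.82 for Sc5d, -0.85 for Fads2 and -1.16 for Fads1. Quantile normalisation reversed 18 members to log2 differences of -0.0472 for Lss, -0.095 for Scap, -0.12 for Ebp, -0.12 for Cyp51, -0.27 for Msmo1, -0.30 for Hmgcs1, -0.32 for Nsdhl, -0.32 for Tm7sf2, -0.34 for Insig2, -0.36 for Srebf2, -0.44 for Mvd, -0.45 for Dhcr7, -0.46 for Srebf1, -0.73 for Scd2, -0.81 for Sc5d, -0.82 for Fdft1, -0.92 for Fads2 and -1.16 for Fads1. Equal sums reversed 14 members to log2 differences of -0.016 for Msmo1, -0.0209 for Tm7sf2, -0.0366 for Nsdhl, -0.0873 for Hmgcs1, -0.13 for Insig2, -0.16 for Mvd, -0.19 for Srebf2, -0.23 for Dhcr7, -0.39 for Srebf1, -0.65 for Scd2, -0.67 for Sc5d, -0.71 for Fdft1, -0.85 for Fads2 and -1.07 for Fads1. Centring with a pseudocount of 0.1 reversed 17 members to log2 differences of -0.16 for Cyp51, -0.28 for Ebp, -0.28 for Scap, -0.35 for Msmo1, -0.42 for Tm7sf2, -0.42 for Hmgcs1, -0.43 for Nsdhl, -0.46 for Insig2, -0.52 for Srebf2, -0.62 for Mvd, -0.64 for Dhcr7, -0.71 for Srebf1, -1.01 for Scd2, -1.09 for Fdft1, -1.11 for Sc5d, -1.21 for Fads2 and -1.54 for Fads1. The cause of the shift between the scales was not tested.

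The Scd1 to Scd2 ratio difference in tissue was -1.78 and not called with a pseudocount of 0.01, and ranged from -1.42 to -0.95 when a library was left out; the other 4 ratios in tissue and all 5 in alpha cells stayed on their side of the threshold under these alternatives. Arm means moved with the pseudocount by construction. At 0.1 the sterol arm stood at -0.11, 0.0811, -0.0159 and 1.56 and the fatty acid arm at 0.63, 0.78, 0.83 and 2.02 in heterozygous and knockout alpha cells, non-tumor tissue and tumors, with a difference of -0.84 in non-tumor tissue. At 0.01 they stood at -0.67, -0.47, -0.31 and 1.45 and at 0.10, 0.30, 0.47 and 1.92, with a difference of -0.78 in non-tumor tissue.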
